A study of Mus musculus with 30 samples.

Results

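The genes of the respiratory chain and of the ATP synthase were followed through postoperative ileus in the small bowel *muscularis externa* (*ME*) of mice. Members were picked by a rule on their symbols, with earlier results of these data known. They were the nuclear genes whose names begin with Nduf and then a, b, c, s or v with a number, which leaves out the assembly factors named Ndufaf, with Uqcr, with Cox and a subunit number from 4 to 8, or with Atp5, without pseudogenes, and the mRNAs of the mitochondrial genome. This gave 95 of the 28586 gene symbols in the tables used, 82 nuclear and 13 mitochondrial (mt). The nuclear genes comprised 38 of complex I, 8 of complex III, 18 of complex IV, 17 of complex V and *Cox7a2l*, which is counted with none of them. The mt genes comprised 7 of complex I, 1 of complex III, 3 of complex IV and 2 of complex V. All 95 were listed for total *ME* RNA, and 93 or 94 were listed in each *RiboTag* table, where *Cox6a2* was not among the symbols and, at IM72h, *Cox4i2* also was not.

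The small bowel of anaesthetised mice was manipulated during a laparotomy (intestinal manipulation, IM), and the *ME* was taken 3 h (IM3h), 24 h (IM24h) or 72 h (IM72h) later. Naïve mice had no surgery. Per the methods of the study the operated mice were males of 10 to 12 weeks. Total *ME* RNA was sequenced for 3 naïve, 3 IM3h, 4 IM24h and 4 IM72h libraries, and RNA bound to tagged ribosomes (*RiboTag*) for 3 naïve, 4 IM3h, 4 IM24h and 4 IM72h libraries. The labels list 4 naïve *RiboTag* samples, of which 1 was not analysed here. All mice carried the *Rpl22* allele of the line B6N.129 Rpl22tm1.1Psam/J, which tags RPL22, a protein of the large ribosomal subunit, with an HA epitope in cells with active Cre recombinase. In the *RiboTag* fraction and in total *ME* RNA at IM24h and IM72h, Cre came from the line B6 Tg(Sox10-icre/ERT2)388Wdr/J, a tamoxifen-inducible Cre under the *Sox10* promoter, which is active in enteric glia. In naïve and IM3h total *ME* RNA, the labels give Cre from B6.Cg-Tg73.12Mvs/J(Gfap-cre) mice. Naïve and operated mice therefore differed in mouse line in the *ME* comparisons at IM24h and IM72h, and line and time after IM cannot be told apart there. The fractions of naïve mice, and those at IM3h, also came from different lines. The library names of the *ME* fall into 3 ranges, and between groups of different ranges these cannot be told apart from time after IM.

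Complexes I, III and IV of the inner mitochondrial membrane pass electrons from NADH to oxygen and pump protons, and complex V, the ATP synthase, uses the proton gradient to make ATP. Smooth muscle of the gut draws much of its ATP from this route. Each of these complexes is built from subunits of both genomes. Nuclear mRNAs are translated on cytosolic ribosomes, and mt mRNAs on mitochondrial ribosomes, which contain no RPL22. An mt mRNA in the *RiboTag* fraction was therefore not carried there by a tagged ribosome that was translating it, and its level is given beside the nuclear ones as a second set of genes from the same organelle.

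Library totals were between 6603170 and 12866062 counts in total *ME* RNA and between 3010306 and 7899493 in *RiboTag* libraries. A single locus, *AY036118*, took 16.1% to 33.5% of the counts of naïve and 24.1% to 25.1% of IM3h *ME* libraries but 1.33% to 6.50% at IM24h and 2.34% to 3.69% at IM72h. In *RiboTag* libraries it took 2.02% to 14.0% in naïve mice and at IM3h, 22.2% to 59.2% at IM24h and 58.0% to 80.1% at IM72h. The level of *Sox10*, the marker of the tagged cells, was between 275.8 and 1033 TMM-scaled CPM (counts per sequencing depth of the library, adjusted by edgeR's TMM factors) in naïve and IM3h *RiboTag* libraries. At IM24h it was 417.8, 37.8, 53.3 and 259.4, and at IM72h 11.8, 2.63, 0 and 1.23. All *RiboTag* libraries at IM72h, and libraries 2 and 3 at IM24h, thus stood apart from the others and held little of the marker that defines the fraction. Counts of edgeR calls at IM24h, and the mt mRNAs named there, are given with and without those libraries, while the other values at IM24h are with them and those at IM72h rest on them entirely. Smooth muscle markers had a summed level of 22099 to 23706 in naïve *ME*. Levels below are TMM-scaled CPM unless named otherwise, fold changes are on the log2 scale with their standard error (SE), and the test is the quasi-likelihood test of edgeR with Benjamini-Hochberg adjustment over all genes tested. Libraries are numbered in the order of their names. The study counts its replicates as mice, but no label ties a library to an animal.

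Promoter sequences are shown for the genes of the ATP synthase c subunit, of which 1 rose and another fell at IM24h, and for *Cox7a1*, which had the largest fall of the nuclear members there. They were chosen after their values were seen. *Atp5g1*, *Atp5g2* and *Atp5g3* each encode the c subunit of the ATP synthase rotor, and their mature proteins are identical, whereas *Cox7a1* is the isoform of complex IV subunit 7a of heart and skeletal muscle. The sequences are from RefSeq (GRCm38.p6), from 250 bases before to 50 bases after the start of the gene, 5′ to 3′ on the gene's own strand. Capitals mark a match to the motif of NRF1 (10 bases, spelled out by the capitals in *Atp5g3*, with any base in the fifth place), of SP1 (GGGCGGG), of ETS factors such as GABPA (CCGGAAG) or of YY1 (AAGATGGCG).

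Atp5g1, chr11:96075582-96075881, minus strand: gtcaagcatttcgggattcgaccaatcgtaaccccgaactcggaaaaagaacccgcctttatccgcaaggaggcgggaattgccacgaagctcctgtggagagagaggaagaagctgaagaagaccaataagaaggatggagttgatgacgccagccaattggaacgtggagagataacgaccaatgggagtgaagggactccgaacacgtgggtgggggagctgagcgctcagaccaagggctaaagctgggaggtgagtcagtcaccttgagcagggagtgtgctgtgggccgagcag

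Atp5g2, chr15:102670998-102671297, minus strand: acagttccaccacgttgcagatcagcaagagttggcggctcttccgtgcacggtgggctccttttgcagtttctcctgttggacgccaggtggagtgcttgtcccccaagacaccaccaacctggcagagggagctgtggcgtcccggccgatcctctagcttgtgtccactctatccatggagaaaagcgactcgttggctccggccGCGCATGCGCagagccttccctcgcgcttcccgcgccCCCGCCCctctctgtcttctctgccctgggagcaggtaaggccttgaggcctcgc

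Atp5g3, chr2:73911277-73911576, minus strand: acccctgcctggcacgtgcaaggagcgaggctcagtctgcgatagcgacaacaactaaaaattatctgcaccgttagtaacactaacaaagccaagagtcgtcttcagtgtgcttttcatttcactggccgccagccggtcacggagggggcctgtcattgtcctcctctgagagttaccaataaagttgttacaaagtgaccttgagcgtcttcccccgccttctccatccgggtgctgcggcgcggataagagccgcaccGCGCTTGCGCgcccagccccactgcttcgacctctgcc

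Cox7a1, chr7:30183921-30184220, plus strand: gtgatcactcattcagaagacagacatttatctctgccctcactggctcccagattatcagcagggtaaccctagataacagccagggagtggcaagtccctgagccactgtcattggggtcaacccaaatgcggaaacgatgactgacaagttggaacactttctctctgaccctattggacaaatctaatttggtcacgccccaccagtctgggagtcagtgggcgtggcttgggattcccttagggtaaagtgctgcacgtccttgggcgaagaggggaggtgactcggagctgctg

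The window of *Atp5g2* held 1 NRF1 and 1 SP1 match and that of *Atp5g3* held 1 NRF1 match, while those of *Atp5g1* and *Cox7a1* held none of the 4 motifs. Among the 69 promoters found for 64 of the 82 nuclear members, 23.2% held the NRF1 motif, 21.7% the ETS motif, 10.1% the YY1 motif and 31.9% the SP1 motif on either strand, against 4.60%, 8.86%, 1.40% and 25.6% of all 32851 promoters. NRF1 and GABPA are textbook regulators of nuclear respiratory genes. A match describes these letters only and not the binding of a factor.

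In naïve *ME*, the summed level of the 82 nuclear members was 14316 ± 2961 CPM of the library total (SD, n = 3) and that of the 13 mt mRNAs 93090 ± 29509, so that the nuclear sum was 0.159 ± 0.0243 of the mt sum. The ratio of the sums does not depend on how a library is scaled. It was 0.143 ± 0.0230 at IM3h (n = 3), 0.251 ± 0.0887 at IM24h (n = 4) and 0.298 ± 0.0446 at IM72h (n = 4). The IM72h libraries, between 0.237 and 0.341, all lay above the naïve ones, between 0.135 and 0.183, while the IM24h libraries, between 0.152 and 0.336, overlapped them. In the *RiboTag* fraction the ratio was 0.232 ± 0.0466 in naïve mice (n = 3), 0.531 ± 0.173 at IM3h, 0.364 ± 0.102 at IM24h and 0.558 ± 0.0991 at IM72h (n = 4 each), and every library after IM was above the naïve maximum of 0.284. As a share of the library, the mt sum of the *RiboTag* fraction went from 48564 ± 12597 in naïve mice to 13028 ± 3868, 8806 ± 4401 and 3356 ± 1899 at the 3 times, and the nuclear sum from 10856 ± 910 to 6485 ± 926, 3245 ± 1747 and 1900 ± 1067. The share taken by *AY036118* rose over the last 2 times. In CPM of the counts without it, the mt sum was 51925 ± 10528, 13725 ± 3692, 15053 ± 3033 and 9426 ± 3155 in the 4 groups, and the nuclear sum 11698 ± 294, 6855 ± 844, 5391 ± 1325 and 5249 ± 1836, so that the nuclear sums at IM24h and IM72h differed by less than the spread between libraries.

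**Figure D1:**
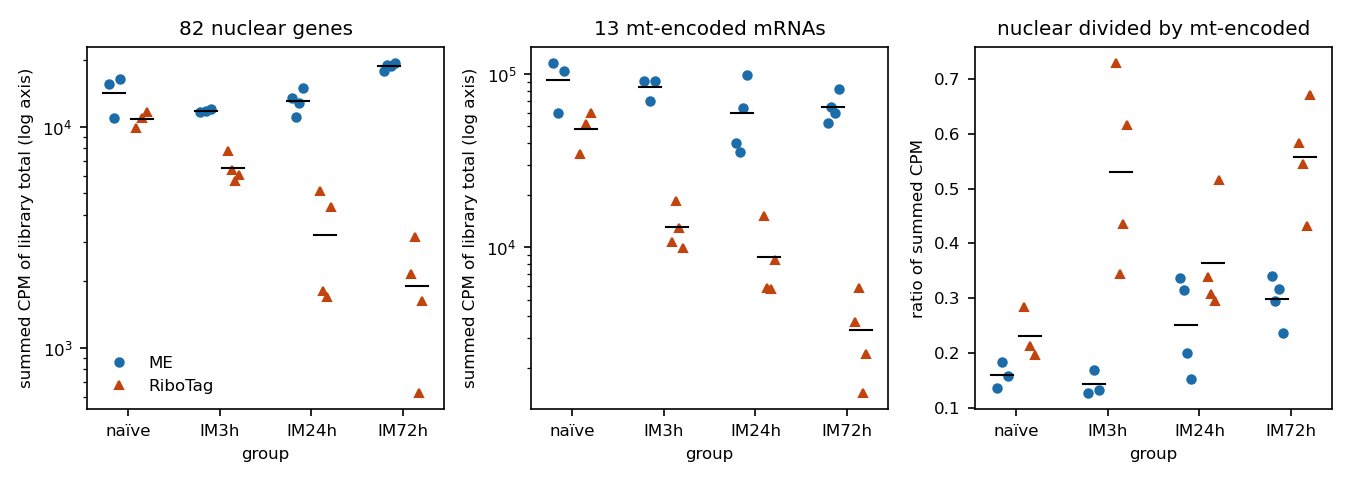
Summed level of the 82 nuclear members and of the 13 mt mRNAs, in CPM of the library total on log axes, and the ratio of the nuclear to the mt sum on a linear axis, by fraction and time. Points are libraries and bars are group means. The ratio in the *ME* lies between 0.135 and 0.183 in naïve mice and between 0.237 and 0.341 at IM72h.

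Both fractions of naïve mice were compared to ask how far respiratory chain mRNAs were present in the ribosome-bound RNA of *Sox10* cells. The *ME* libraries of this comparison, and of that at IM3h, were from Gfap-cre mice and the *RiboTag* libraries from the *Sox10* line, so fraction and mouse line cannot be told apart. The members were lower in the *RiboTag* fraction. Of the 80 nuclear members that passed the filter on low counts, 62 were lower and 0 higher, against 12.7% of all genes lower and 13.4% higher, and 68 were lower and 0 higher at an unadjusted p under 0.05. DESeq2 called 65 lower and 0 higher. At an unadjusted p under 0.05 with more than 2-fold change, the threshold of the study, 44 were lower and 0 higher (11.5% and 14.1% of all genes). The median log2 difference was -1.12 over nuclear members, -2.32 over mt mRNAs and -0.01 over all genes. All 13 mt mRNAs were lower. By complex, 28 of 38 genes of complex I, 7 of 8 of complex III, 11 of 16 of complex IV and 15 of 17 of complex V were lower, with medians of -0.99, -1.53, -1.40 and -0.99. When libraries were scaled by their total, 25 nuclear members were lower and 3 higher. The median of all genes was then 0.72, and the nuclear median lay 1.14 below it. Scaling to 3 reference genes, *Actb*, *Hsp90ab1* and *Rplp1*, left 36 nuclear members and 8 mt mRNAs lower and 0 higher, with the nuclear median 1.17 below that of all genes.

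The difference was not even among the members. *Ndufa4*, a small subunit now assigned to complex IV, had 208, 149 and 226 in naïve *ME* and 24.9, 12.1 and 19.9 in naïve *RiboTag* libraries (log2 difference -2.99, SE 0.29, adjusted p = 0.000311). *Cox5a*, a structural subunit of complex IV, had 229, 154 and 225 against 32.7, 29.4 and 33.9 (-2.30, SE 0.20, adjusted p = 0.000209). In both genes the highest *RiboTag* library was several-fold below the lowest *ME* library. *Uqcrc1*, a core subunit of complex III, was at 107, 119 and 108 in the *ME* and 92.5, 81.8 and 89.4 in the *RiboTag* fraction, each scaled within its own fraction, and in the joint fit its log2 difference was 0.02 (SE 0.15, adjusted p = 0.927). It was 1 of 3 nuclear members with a positive value, beside *Atp5g2* (0.42, SE 0.27, adjusted p = 0.279) and *Ndufs6* (0.14, adjusted p = 0.686), a complex I subunit named after its value was seen. *Uqcrfs1*, the Rieske iron-sulfur protein of complex III, was lower (-1.72, SE 0.29, adjusted p = 0.00326), as was *Atp5b*, the catalytic β subunit of the ATP synthase (-0.91, SE 0.19, adjusted p = 0.00812). Among the c subunit genes, *Atp5g3* was lower (-1.87, SE 0.32, adjusted p = 0.00369), whereas *Atp5g1* was not called (-0.41, SE 0.22, adjusted p = 0.193). *Atp5g2* made up 7.26% ± 2.29 of the counts of these 3 genes in the *ME* and 21.9% ± 4.55 in the *RiboTag* fraction (SD, n = 3 each). Among mt mRNAs, *mt-Co1*, which encodes the catalytic subunit of complex IV, differed by -2.23 (SE 0.21, adjusted p = 0.000252) and *mt-Cytb*, the only mt gene of complex III, by -1.43 (SE 0.34, adjusted p = 0.0141). The call for *mt-Cytb* was lost without *ME* library 1.

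Smooth muscle markers had a summed level of 4885 to 7521 in naïve *RiboTag* libraries against 22099 to 23706 in naïve *ME*, and the 6 glial markers 1550 to 1871 against 117 to 139. The part of these cell types in the differences was not tested. In total RNA, and in RNA from tagged cells, fewer cells of a type and less RNA per cell cannot be told apart. At IM3h and IM24h more of the members than of all genes were lower in the *RiboTag* fraction. At IM3h 62 of 79 nuclear members were lower and 0 higher (12.2% and 11.8% of all genes; 63 and 0 with DESeq2) with a median of -1.78, and all 13 mt mRNAs were lower with a median of -3.57. At IM24h 33 of 78 were lower and 0 higher (6.06% of all genes in either direction), and 41 of 81 were lower without *RiboTag* libraries 2 and 3. DESeq2 called 38 lower and 1 higher. The count was 18 without *ME* library 1 or 3 and 14 without *ME* library 4, and scaled to the 3 reference genes it was 12, where the median of all genes was -1.08 and the nuclear median lay 1.36 below it. At IM72h 22 of 79 were lower and 0 higher, while 25.4% of all genes were lower and 4.18% higher, with a median of -0.64 over all genes, in *RiboTag* libraries that held little *Sox10*. This count depended on the processing. It was 46 with DESeq2, 47 with the 3 reference genes, 53 with library totals and between 18 and 47 with 1 library left out, with 47 and 38 without *RiboTag* library 2 and 3. At an unadjusted p under 0.05 and more than 2-fold change, 65 nuclear members were lower and 0 higher at IM3h (13.4% and 12.8% of all genes), 45 and 1 at IM24h (13.5% and 11.5%) and 39 and 0 at IM72h (29.1% and 6.78%).

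**Figure D2:**
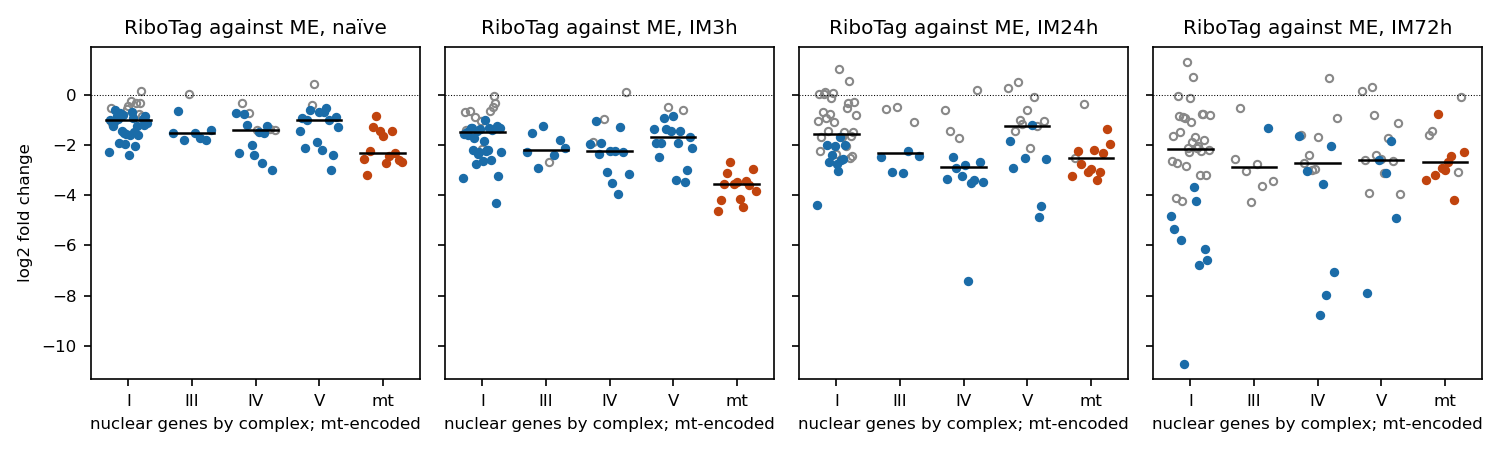
Log2 difference between *RiboTag* and total *ME* RNA for each member, by complex and genome, in naïve mice and at the 3 times after IM. Filled points have an adjusted p under 0.05 and bars are medians. In naïve mice the median is -1.12 over nuclear members and -2.32 over mt mRNAs.

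In the *ME* at IM3h few nuclear members changed with TMM scaling, and the 9 that fell were no larger a share than among all genes. Of 80 nuclear members tested, 9 fell and 0 rose (13.4% of all genes fell and 19.3% rose), 14 and 0 at an unadjusted p under 0.05 and 8 and 0 with DESeq2. At an unadjusted p under 0.05 with more than 2-fold change 1 fell and 0 rose (7.14% and 11.3% of all genes). With TMM scaling the share that fell was near that of all genes, and 16 members lay below all naïve libraries, where 24.8% of all genes did (23.4% lay above). The median log2 change was -0.05. Of the 9 that fell 8 were of complex I, which made up 38 of the 80 members tested and of which 21.1% fell. The 8 were *Ndufb2*, *Ndufb4*, *Ndufb4c*, *Ndufc2*, *Ndufs3*, *Ndufs7*, *Ndufv2* and *Ndufv3*. No member of complex III or V was called. *Ndufb4*, an accessory subunit of the membrane arm, had 46.1, 31.8 and 41.1 in naïve mice and 26.6, 23.3 and 19.3 at IM3h (-0.73, SE 0.18, adjusted p = 0.0108). The groups did not overlap. *Ndufb4c* is a near copy of it (-0.63, SE 0.19, adjusted p = 0.026), and reads could not be assigned between them with certainty. Of the 7 core genes of complex I, 3 fell, all named after their values were seen. They were *Ndufs3* (-0.31, SE 0.10, adjusted p = 0.0423), *Ndufs7* (-0.40, SE 0.12, adjusted p = 0.0247) and *Ndufv2* (-0.40, SE 0.10, adjusted p = 0.014). The calls are fragile, since leaving out 1 library at a time gave between 3 and 13 nuclear members, with 3 and 5 without IM3h library 1 or 2 and 4 and 5 without naïve library 1 or 3. Scaling by library totals, which put the median of all genes at -0.26, gave 19, and scaling to the 3 reference genes, which put it at -0.41, gave 45. The nuclear median lay 0.06 and 0.05 below that of all genes under these scalings. Markers of other cells had moved at this time. The summed level of mesothelial markers was 120 to 146 in naïve *ME* and 14.4 to 60.6 at IM3h, with 3 of 4 lower, that of fibroblast markers 2212 to 2347 and 1070 to 1270, with 4 of 5 lower, and that of interstitial cells of Cajal 365 to 371 and 256 to 267, with 3 of 4 lower. Neutrophil markers went from between 0.483 and 0.725 to between 20.4 and 29.0, with 2 of 2 tested higher and *Ly6g* at 0, and 1 of 7 smooth muscle markers was lower. Their part in the changes was not tested.

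The gene with the largest fitted fall was *Ndufa4l2*, a hypoxia-inducible relative of *Ndufa4*. It passed the filter on low counts only through its naïve libraries, which had 22, 20 and 21 counts against 4, 8 and 2 at IM3h, so that its place among the members tested depended on being high there. It had 2.66, 4.30 and 2.54 in naïve mice and 0.563, 1.18 and 0.332 at IM3h, which is low in every library (-2.08, SE 0.55, adjusted p = 0.0166). The groups did not overlap, and the call was lost without IM3h library 1 or 3 or naïve library 2. At the later times it stayed between 0.273 and 2.27, all below the naïve libraries, and its change was -1.76 (SE 0.68, adjusted p = 0.0776) at IM24h and -0.96 (SE 0.36, adjusted p = 0.0386) at IM72h. Among the mt mRNAs only *mt-Co1* was called at IM3h (1 higher and 0 lower of 13, against 19.3% and 13.4% of all genes). It had 2614, 2137 and 2454 in naïve mice and 3497, 3162 and 3675 at IM3h, a rise of 1.48-fold (0.57, SE 0.12, adjusted p = 0.00535). The call was lost when libraries were scaled by their totals or by the 3 reference genes, with the same direction. An exact two-sided permutation test of 3 against 3 libraries cannot give a p below 0.1, and gave 0.1 for *mt-Co1*.

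At IM24h genes of every complex and of both genomes fell in the *ME*. Of 81 nuclear members 49 fell and 1 rose, against 13.4% and 15.6% of all genes, and 53 lay below and 2 above every naïve library, against 20.8% and 20.1% of all genes. At the 2-fold threshold 34 fell and 0 rose (11.3% and 12.1% of all genes). The median change was -0.89, and 0.02 over all genes. The falls were spread over 25 of 38 genes of complex I, 5 of 8 of complex III, 8 of 17 of complex IV and 10 of 17 of complex V, with medians of -0.82, -0.99, -0.90 and -0.93. *Cox7a2l*, which promotes the joining of complexes III and IV, also fell (-0.74, SE 0.15, adjusted p = 0.00453). Scaling by library totals gave 13 lower and 8 higher. The median of all genes was then 0.66, and the nuclear median lay 0.92 below it.

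*Ndufa13*, a membrane arm subunit of complex I, had 248, 219 and 253 in naïve mice and 65.8, 58.1, 66.4 and 81.2 at IM24h, 3.54-fold lower (-1.83, SE 0.16, adjusted p = 8.94e-05). *Cox4i1*, the regulatory subunit of complex IV, went from 448, 387 and 447 to 186, 135, 140 and 161 (-1.46, SE 0.16, adjusted p = 0.000256). *Cox8a*, its smallest subunit, went from 1033, 896 and 977 to 386, 253, 409 and 603 (-1.23, SE 0.26, adjusted p = 0.00552). None of these 3 genes had overlapping groups with TMM scaling. In CPM of the library total the exact permutation test gave p = 0.114 for *Cox8a* and 0.0286 for *Ndufa13* and *Cox4i1*. *Ndufv1*, the NADH-binding subunit of complex I, was less even after IM, with 110, 96.3 and 93.3 against 24.4, 24.4, 40.2 and 67.5 (-1.35, SE 0.33, adjusted p = 0.0116). *Ndufs1*, the largest subunit of the same arm, showed no such difference, with 102, 94.6 and 105 against 109, 110, 89.4 and 95.2 (0.00, SE 0.15, adjusted p = 0.999). It was the exception among the 7 core genes, 6 of which fell. The 3 core genes of complex III were not called, and *Uqcrc1* had a log2 change of -0.49 (SE 0.20, adjusted p = 0.0934). The 5 genes of this complex that fell were *Uqcr10*, *Uqcr11*, *Uqcrb*, *Uqcrh* and *Uqcrq*, all small accessory subunits. *Atp5b* went from 752, 579 and 744 to 470, 347, 430 and 528 (-0.64, SE 0.19, adjusted p = 0.0276), and its call was lost without IM24h library 1 or 3 or naïve library 1 or 3. In CPM of the library total its means were 567 in naïve mice and 561 at IM24h (exact permutation p = 0.943). In *Ndufb2*, an accessory subunit of complex I, IM24h library 4 stood apart, with 128, 81.9 and 141 in naïve mice against 13.4, 13.4, 15.1 and 73.1 (-2.03, SE 0.57, adjusted p = 0.0235), and the call was lost without IM24h library 1 or 3 or naïve library 1 or 3.

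The single nuclear member that rose was *Atp5g2*. It had 91.1, 58.9 and 51.0 in naïve mice and 107, 119, 108 and 105 at IM24h, 1.63-fold higher (0.71, SE 0.20, adjusted p = 0.0252), although the call was lost without naïve library 2 or 3 and under scaling to the 3 reference genes. *Atp5g1* moved the other way, from 181, 146 and 175 to 68.9, 56.2, 79.7 and 94.9 (-1.16, SE 0.19, adjusted p = 0.0018), and *Atp5g3* had 818, 465 and 876 against 899, 771, 712 and 782 (0.13, SE 0.23, adjusted p = 0.702). With TMM scaling *Atp5g1* and *Atp5g2* had no overlap between groups, and *Atp5g3* did. In CPM of the library total *Atp5g1* had means of 137 in naïve mice and 94.7 at IM24h (exact permutation p = 0.114). *Atp5g3* had 599 and 998 on that scale (exact permutation p = 0.0286), and *Atp5g2* 54.5 and 138 (p = 0.0286). *Cox7a1* had the largest fall of the nuclear members, 5.86-fold, from 16.7, 21.5 and 16.8 to 1.88, 1.80, 3.55 and 5.27 (-2.55, SE 0.39, adjusted p = 0.00117). Its share of the counts of *Cox7a1* and the ubiquitous *Cox7a2* was 4.22% ± 1.11 in naïve mice (SD, n = 3) and 1.10% ± 0.49 at IM24h (n = 4). Of 5 isoforms of restricted expression that were tested, *Cox7a1* alone passed the test, and of the 7 ubiquitous partners 5 fell. *Cox8b*, like *Cox7a1* an isoform of heart and skeletal muscle, had 6.88, 8.38 and 10 against 1.22, 2.20, 0.0909 and 4.24 (-2.13, SE 0.76, adjusted p = 0.0606). *Cox6a2* was below the filter at a mean of 0.62 in naïve *ME*.

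Of the 13 mt mRNAs 8 fell and 0 rose at IM24h, against 13.4% and 15.6% of all genes. Every value was negative, from -2.22 to -0.53, and the median was -1.29. All 13 had an unadjusted p under 0.05. *mt-Nd6*, the only mRNA of the light strand, went from 3801, 2214 and 3258 to 467, 470, 903 and 1258 (-2.0, SE 0.36, adjusted p = 0.00277), with no overlap. *mt-Atp6*, the proton channel subunit a of the ATP synthase, had 20635, 11760 and 17838 against 1831, 1281, 3968 and 10613 (-1.92, SE 0.62, adjusted p = 0.0396), and *mt-Cytb* had 15800, 8267 and 13327 against 2208, 2183, 4414 and 9426 (-1.45, SE 0.49, adjusted p = 0.0479). IM24h library 4 was the highest of its group in these mRNAs. Without it all 13 were called, while leaving out any other library ended the calls of *mt-Atp6* and *mt-Cytb*, and the count was 4 without IM24h library 1, 2 or 3 or naïve library 1 or 3. *mt-Nd1*, of the membrane arm of complex I, was not called (-0.90, SE 0.33, adjusted p = 0.0676), nor was *mt-Co1* (-0.53, SE 0.19, adjusted p = 0.064), which had a log2 change of 0.10 with library totals, where the median of all genes was 0.66. Marker levels moved with these results. The summed level of 7 smooth muscle markers was 22099 to 23706 in naïve *ME* and 3240 to 10806 at IM24h, with 5 of 7 lower, adipocyte markers went from between 308 and 465 to between 86.3 and 114, with 5 of 5 lower, and macrophage and monocyte markers went from between 136 and 151 to between 453 and 582, with 6 of 8 higher. Skeletal muscle markers went from between 152 and 195 to between 8.99 and 38.0, with *Myh1* and *Myh4* at 0. Epithelial markers went from between 74.1 and 231 to between 31.8 and 88.4, with 3 of 5 lower, and mesothelial markers from between 120 and 146 to between 6.29 and 91.3, with 1 of 4 lower. Neutrophil markers went from between 0.483 and 0.725 to between 43.5 and 203, with 3 of 3 tested higher. The part of these cell types in the changes was not tested.

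**Figure D3:**
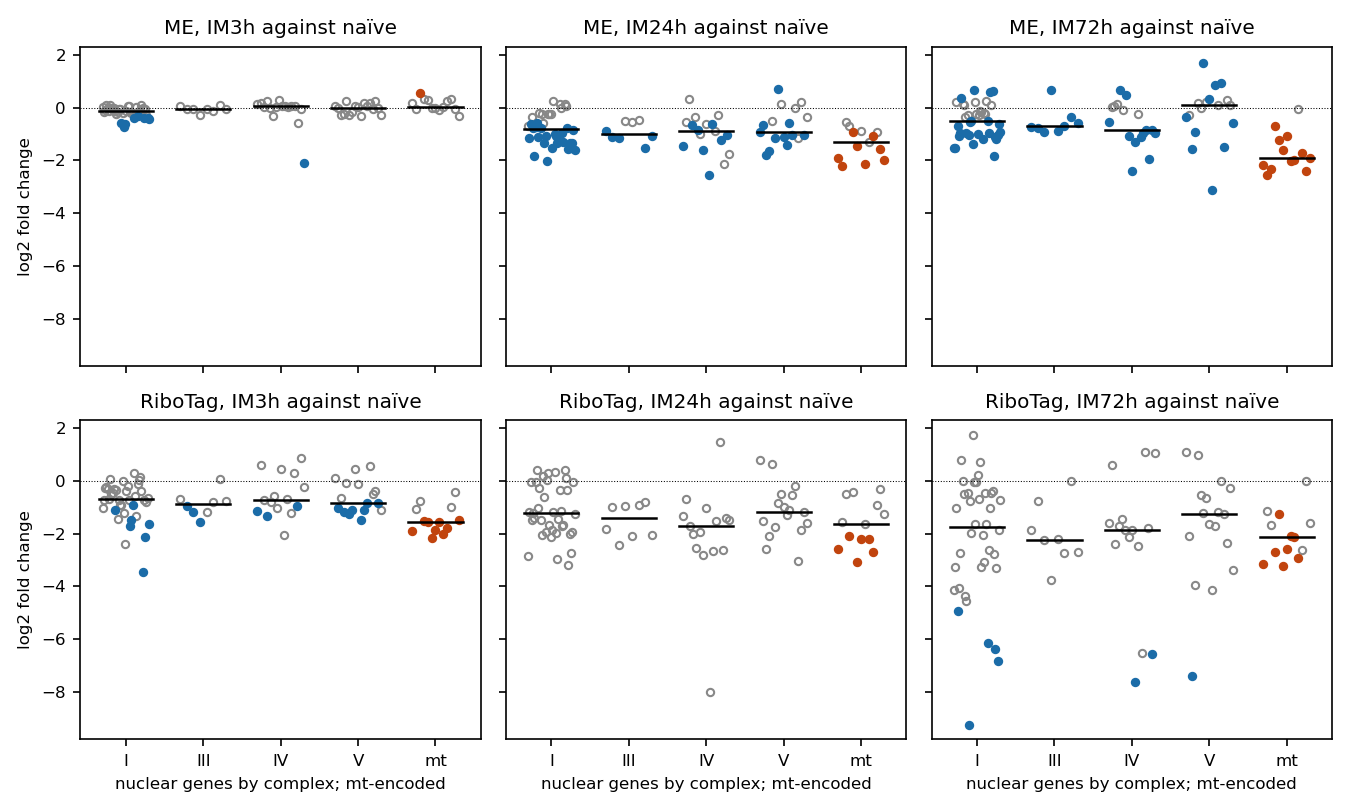
Log2 fold change against naïve mice for each member, by complex and genome, in the *ME* and in the *RiboTag* fraction at IM3h, IM24h and IM72h. Filled points have an adjusted p under 0.05 and bars are medians. In the *ME* the nuclear median is -0.05 at IM3h, -0.89 at IM24h and -0.51 at IM72h.

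At IM72h nuclear members of the *ME* were called in both directions with TMM scaling, and the mt mRNAs were low with a single exception. Of 81 nuclear members 43 fell and 11 rose, against 28.3% and 29.3% of all genes, so that the share that rose was below and the share that fell above those of all genes. The counts of members outside the range of naïve libraries were 39 below and 16 above, against 27.7% and 31.1% of all genes. With the 2-fold threshold 18 fell and 1 rose (15.6% and 17.2% of all genes). The median was -0.51, and 0.02 over all genes. With library totals 14 fell and 30 rose. The median of all genes was then 0.62, and the nuclear median lay 0.54 below it, and with the 3 reference genes 64 fell and 1 rose, with the median of all genes at -0.58 and the nuclear median 0.52 below it. The direction of a small change, and the number that rose, thus depended on the scaling. Complex I had 20 lower and 4 higher of 38, complex III 7 lower and 1 higher of 8, complex IV 10 lower and 2 higher of 17, and complex V 6 lower and 4 higher of 17, with medians of -0.51, -0.71, -0.85 and 0.12. Compared with IM24h directly, 34 nuclear members were higher and 5 lower at IM72h (18.6% and 19.9% of all genes), with a median of 0.43, and 37 lay above and 3 below all IM24h libraries (21.6% and 17.6% of all genes). With the 2-fold threshold 14 were higher and 2 lower (12.7% and 12.5% of all genes). Scaling to the 3 reference genes gave 11 higher and 2 lower. The 5 were *Ndufa1*, *Ndufb6*, *Ndufc2*, *Cox6c2* and *Atp5j*. Their number was 3 without any 1 of the IM72h libraries.

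*Atp5g2* rose furthest of all nuclear members. It had 282, 201, 212 and 195 at IM72h against 91.1, 58.9 and 51.0 in naïve mice, 3.24-fold higher (1.70, SE 0.21, adjusted p = 5.39e-05), and it was also above IM24h (0.99, SE 0.15, adjusted p = 0.000528). It made up 18.0% ± 3.27 of the c subunit counts (SD, n = 4). *Atp5g1* was back at 163, 160, 165 and 188 against 181, 146 and 175 (-0.02, SE 0.12, adjusted p = 0.913). Its sign turned with library totals, without the filter, in a joint fit of all groups and without any 1 of 4 single libraries. From IM24h to IM72h it rose (1.14, SE 0.17, adjusted p = 0.000414). *Atp5g3* had 790, 889, 887 and 826, and its change from naïve mice was 0.21 (SE 0.19, adjusted p = 0.37), negative under scaling to the 3 reference genes at -0.41. In CPM of the library total its means were 599 in naïve mice and 1025 at IM72h, and those of *Atp5g1* 137 and 204 (exact permutation p = 0.0286 for each gene). With TMM scaling 1 of the 3 genes for the same protein thus rose at both times, another fell at IM24h only, and *Atp5g3* was called at neither. Other ATP synthase genes also rose. *Atp5l*, subunit g of the membrane sector, had 485, 462 and 485 in naïve mice and 982, 967, 973 and 800 (0.93, SE 0.12, adjusted p = 6.71e-05). *Atp5j2*, subunit f, had 313, 276 and 296 and then 592, 547, 579 and 481 (0.87, SE 0.12, adjusted p = 0.000108), after 214, 192, 179 and 197 at IM24h. In contrast *Atp5j*, coupling factor 6 of the stalk, had the largest fall, 8.62-fold, from 273, 185 and 267 through 70.6, 38.8, 94.3 and 158 at IM24h to 11.2, 28.1, 21.9 and 52.6 (-3.11, SE 0.39, adjusted p = 5.68e-05). With TMM scaling naïve and IM72h libraries did not overlap in any of these genes but *Atp5g1* and *Atp5g3*.

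*Uqcrc1* rose while the 7 other genes of complex III fell. It had 107, 119 and 108 in naïve mice and 157, 212, 206 and 152 at IM72h (0.68, SE 0.14, adjusted p = 0.00211), with 75.5, 54.0, 96.7 and 92.1 at IM24h in between. *Uqcrfs1* had 45.2, 69.9, 62.8 and 64.6 against 108, 64.7 and 117 (-0.70, SE 0.20, adjusted p = 0.0111), and the call was lost without naïve library 1 or 3. In complex IV *Cox6a1*, a ubiquitous subunit, rose from 619, 469 and 604 to 832, 998, 924 and 938 (0.68, SE 0.13, adjusted p = 0.00117). *Cox6b2*, best known from testis, was called with 20.9, 20.8, 17.1 and 18.5 against 13.9, 9.46 and 16.8 (0.48, SE 0.19, adjusted p = 0.0475), but the call was lost without any 1 of 5 libraries and its sign turned under scaling to the 3 reference genes at -0.14. *Cox4i1* was at 279, 273, 287 and 371, above IM24h (0.93, SE 0.16, adjusted p = 0.00107) and below naïve mice (-0.53, SE 0.13, adjusted p = 0.00611). With library totals its change from naïve mice was 0.07. *Cox7a1* had 3.61, 8.71, 7.01 and 10.5 (-1.31, SE 0.29, adjusted p = 0.00259) and *Cox8b* 1.59, 2.55, 1.88 and 2.86 (-1.94, SE 0.27, adjusted p = 0.000131), each below every naïve library. *Cox6c2*, a processed copy of *Cox6c* whose reads cannot be assigned with certainty, went from 114, 81.4 and 109 to 13.2, 24.9, 18.6 and 20.9 (-2.42, SE 0.20, adjusted p = 3.5e-06). Complex I core genes remained low in 6 of 7 cases, among them *Ndufv1* at 33.6, 52.1, 45.1 and 65.6 (-1.05, SE 0.19, adjusted p = 0.000706), whereas *Ndufs1* had 126, 127, 117 and 117 (0.24, SE 0.10, adjusted p = 0.0634). The other members that rose were *Ndufa2*, *Ndufb3*, *Ndufs4*, *Ndufs6* and *Atp5h*, by 0.32 to 0.66 on the log2 scale.

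**Figure D4:**
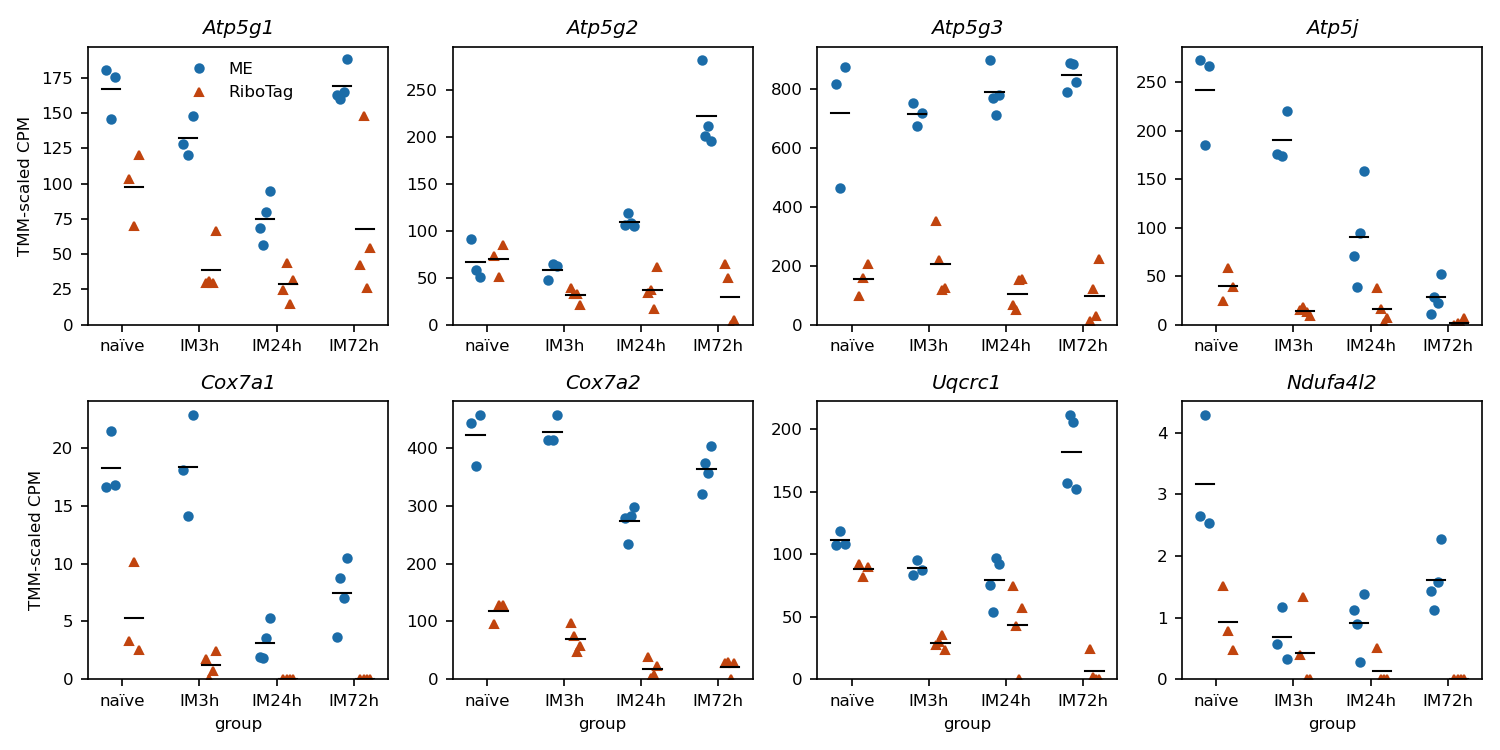
Level of 8 nuclear members in every library (TMM-scaled CPM), by fraction and time. Points are libraries and bars are means. In the *ME*, *Atp5g2* goes from 51.0 to 91.1 in naïve mice to 195 to 282 at IM72h, and *Atp5j* from 185 to 273 to 11.2 to 52.6.

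Of the 13 mt mRNAs 12 fell at IM72h and 0 rose, with a median of -1.89 (28.3% of all genes fell). *mt-Co1*, which had not been called at IM24h, was at 381, 494, 446 and 611 against 2614, 2137 and 2454 in naïve mice, 5.08-fold lower (-2.34, SE 0.16, adjusted p = 1.34e-06), and was also below the IM24h libraries at 1523, 1314, 1908 and 1913 (-1.82, SE 0.19, adjusted p = 7.36e-05). No IM72h library overlapped either group. *mt-Nd4*, of the membrane arm of complex I, was the exception. It had 16700, 23726, 20374 and 25257 against 27355, 15800 and 22653 (-0.06, SE 0.21, adjusted p = 0.826), a value whose sign turned with library totals (0.52) and without single libraries. Within the mt mRNA of a library, *mt-Nd4* took 19.3% ± 0.63 of the counts in naïve *ME* (n = 3) and 40.4% ± 3.24 at IM72h (SD, n = 4), while *mt-Co1* took 2.18% ± 0.32 and 0.90% ± 0.02. These shares do not depend on the scaling of the library. From IM24h to IM72h *mt-Nd4* was higher (1.0, SE 0.29, adjusted p = 0.0189) and *mt-Nd5* lower (-0.83, SE 0.29, adjusted p = 0.0401), beside *mt-Co1*. The first call was lost without IM24h library 1 and the second without most single libraries. The genes *mt-Nd4* and *mt-Nd5*, and *mt-Co3* and *mt-Nd3* below, were named after their values were seen. *mt-Atp6* was at 2523, 3193, 2996 and 6440 (-2.17, SE 0.31, adjusted p = 0.000141), *mt-Cytb* at 3166, 3676, 3307 and 6515 (-1.61, SE 0.28, adjusted p = 0.000527), *mt-Nd1* at 3968, 5394, 4808 and 7437 (-1.08, SE 0.23, adjusted p = 0.00189) and *mt-Nd6* at 809, 861, 844 and 892 (-1.89, SE 0.17, adjusted p = 5.98e-06). All 4 lay below their naïve libraries with TMM scaling. In CPM of the library total the exact permutation test gave p = 0.0857 for *mt-Cytb* and 0.229 for *mt-Nd1*, and 0.0286 for *mt-Atp6* and *mt-Nd6*.

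Some mt genes overlap in a part of their coding sequences, and reads within that part cannot be told apart by position. The last 43 bases of *mt-Atp8* are the first of *mt-Atp6*, on the plus strand of chrM from 7927 to 7969 (mm10). The overlap is shown with the start codon of *mt-Atp6* in capitals because reads in it belong to both genes.

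mt-Atp8 and mt-Atp6, overlap: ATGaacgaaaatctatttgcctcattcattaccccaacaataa

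*mt-Nd4l* and *mt-Nd4* overlap by 7 bases, and *mt-Nd5* and *mt-Nd6* lie on opposite strands with adjoining ends, so that their counts may be partly shared. The mt rRNAs, which are not members, had a mean of 64389 CPM of the library total in naïve *ME* and 83051, 56928 and 5066 at IM3h, IM24h and IM72h. The fall in mt rRNA at IM72h was thus larger than that of the mt mRNA sum, which had a mean of 64593. Smooth muscle markers were between 12382 and 20487 at IM72h, below their naïve range, macrophage and monocyte markers between 792 and 1041, fibroblast markers between 3942 and 4484 against 2212 to 2347, and adipocyte markers between 56.2 and 116. Markers of interstitial cells of Cajal were between 157 and 181 against 365 to 371 in naïve mice, with 4 of 4 lower, mesothelial markers between 35.9 and 92.7 against 120 to 146, with 3 of 4 lower, and neutrophil markers between 17.5 and 50.8 against 0.483 to 0.725, with 4 of 4 tested higher. Of skeletal muscle markers 2 of 4 tested were higher and 1 lower than in naïve mice, and 3 of 3 tested were higher than at IM24h. Of glial markers 3 of 6 were higher and 1 lower than in naïve mice. Of all genes 29.3% were higher and 28.3% lower than in naïve mice, and 18.6% were higher than at IM24h. Their part in the changes was not tested.

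**Figure D5:**
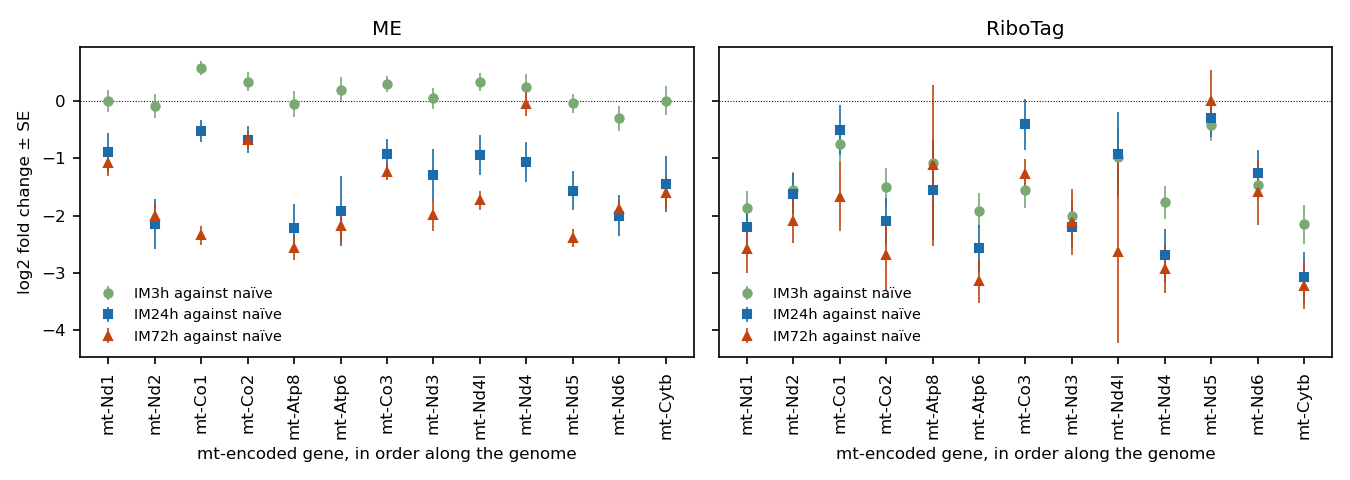
Log2 fold change against naïve mice, with its SE as error bar, of the 13 mt mRNAs in the order of the mitochondrial genome, in the *ME* and in the *RiboTag* fraction. Points are fitted values. In the *ME* at IM72h, *mt-Nd4* is at -0.06 while *mt-Co1* is at -2.34.

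In the *RiboTag* fraction some members of both genomes fell at IM3h. Of 79 nuclear members tested 21 fell and 0 rose, against 4.44% and 8.86% of all genes, 39 and 1 at an unadjusted p under 0.05 and 28 and 0 with DESeq2. Below all naïve libraries lay 38 members and above them 1, against 15.6% and 14.3% of all genes. Past the 2-fold threshold 22 fell and 0 rose (8.86% and 11.8% of all genes). The median was -0.72. They were 7 of 38 genes of complex I, 3 of 8 of complex III (*Uqcr11*, *Uqcrb* and *Uqcrc1*), 3 of 15 of complex IV (*Cox4i1*, *Cox6a1* and *Cox8a*) and 8 of 17 of complex V. The count was between 7 and 32 with 1 library left out. It was 32 without IM3h library 4, 12 without IM3h library 3, and 12, 13 and 7 without naïve library 1, 2 and 3. It was 6 when scaled to the 3 reference genes, where the median of all genes was -0.45, and 0 in a joint fit of all 4 groups. *Uqcrc1* had 92.5, 81.8 and 89.4 in naïve mice and 26.9, 29.8, 35.4 and 23.1 at IM3h, 2.93-fold lower (-1.55, SE 0.25, adjusted p = 0.00191). *Ndufs8*, an iron-sulfur core subunit of complex I, went from 28.4, 29.2 and 21.0 to 5.15, 6.46, 3.82 and 7.71 (-2.12, SE 0.39, adjusted p = 0.004), and *Ndufb8*, an accessory subunit of its membrane arm, from 167, 151 and 206 to 63.3, 55.7, 45.0 and 42.0 (-1.70, SE 0.24, adjusted p = 0.000863). In these 3 genes the libraries of a group were close together and the groups well apart. The largest fitted fall was that of *Ndufs6b*, a near copy of *Ndufs6* whose reads are uncertain, from 11.8, 7.87 and 12.5 to 0.692, 1.33, 1.62 and 0.0929 (-3.45, SE 0.84, adjusted p = 0.0182). It passed the filter through its naïve libraries, and its call was lost without naïve library 1 or 3.

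*Cox4i1* went from 192, 179 and 237 to 121, 90.5, 62.1 and 83.8 (-1.13, SE 0.25, adjusted p = 0.0126), *Cox6a1* from 177, 261 and 330 to 140, 90.7, 85.5 and 74.5 (-1.33, SE 0.28, adjusted p = 0.00929) and *Cox8a* from 370, 251 and 338 to 177, 155, 167 and 130 (-0.97, SE 0.23, adjusted p = 0.0167). The groups did not overlap in these genes, but the calls were lost without naïve library 3, and that of *Cox8a* also without naïve library 1. *Atp5b* had 238, 336 and 285 against 119, 170, 142 and 101 (-1.05, SE 0.25, adjusted p = 0.0161), and was not called without naïve library 2 or 3. Of the c subunit genes, *Atp5g1* had 103, 70.1 and 120 against 29.8, 31.1, 29.4 and 66.3 (-1.27, SE 0.34, adjusted p = 0.0274) and *Atp5g2* 73.8, 50.6 and 85.3 against 39.0, 32.8, 33.1 and 21.2 (-1.09, SE 0.29, adjusted p = 0.0274). Both calls were lost without any 1 of several libraries. *Atp5g3* had 97.2, 159 and 206 against 353, 221, 119 and 125 (0.47, SE 0.39, adjusted p = 0.503). Of the mt mRNAs 9 of 13 fell and 0 rose, against 4.44% and 8.86% of all genes, with a median of -1.55. *mt-Cytb* went from 2144, 4326 and 4338 to 488, 1110, 803 and 706, 4.44-fold lower (-2.15, SE 0.34, adjusted p = 0.00183), *mt-Atp6* from 1605, 2737 and 2362 to 434, 861, 556 and 422 (-1.91, SE 0.31, adjusted p = 0.00216), *mt-Nd1* from 2221, 2523 and 3707 to 539, 1043, 660 and 717 (-1.87, SE 0.29, adjusted p = 0.00179) and *mt-Nd6* from 326, 303 and 487 to 101, 136, 125 and 154 (-1.47, SE 0.25, adjusted p = 0.00272), none with overlap. *mt-Co1* had 301, 442 and 450 against 218, 312, 268 and 108 (-0.75, SE 0.33, adjusted p = 0.167). The other 3 not called were *mt-Atp8*, *mt-Nd4l* and *mt-Nd5*. Smooth muscle markers, which the tagged cells should lack, were between 4885 and 7521 in naïve *RiboTag* libraries and between 1947 and 5025 at IM3h, and glial markers between 1550 and 1871 and between 1291 and 2802. Mesothelial markers went from between 96.6 and 227 to between 9.31 and 65.2, with 3 of 4 lower, fibroblast markers from between 717 and 988 to between 301 and 429, with 3 of 5 lower, and markers of interstitial cells of Cajal from between 161 and 225 to between 63.0 and 148, with 1 of 4 lower. The part of mRNA from untagged cells was not tested.

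Whether IM3h changed the members differently in the 2 fractions was tested as an interaction over both. The change was lower in the *RiboTag* fraction for 5 of 80 nuclear members and higher for 0 (0.698% and 0.959% of all genes), with 28 and 1 at an unadjusted p under 0.05 and 16 and 0 with DESeq2. With the 2-fold threshold 13 were lower and 0 higher (5.18% and 5.99% of all genes). The 5 were *Uqcrc1* (-1.19, SE 0.25, adjusted p = 0.0284), *Ndufs8* (-1.97, SE 0.35, adjusted p = 0.0111), *Ndufb8* (-1.45, SE 0.26, adjusted p = 0.0118), *Cox6a1* (-1.5, SE 0.34, adjusted p = 0.039) and *Ndufs6b* (-3.40, SE 0.72, adjusted p = 0.0279). The reads of *Ndufs6b* are uncertain, and within the *RiboTag* fraction it passed the filter through its naïve libraries, so its value is given as a description. In the *ME* itself *Uqcrc1* had 83.1, 95.4 and 87.3 at IM3h against 107, 119 and 108 (-0.28, SE 0.11, adjusted p = 0.0695). Of the mt mRNAs 6 of 13 were called, all lower in the *RiboTag* fraction. They were *mt-Nd1* (-1.77, SE 0.40, adjusted p = 0.0352), *mt-Nd3* (-1.96, SE 0.41, adjusted p = 0.0257), *mt-Nd4* (-1.92, SE 0.39, adjusted p = 0.0244), *mt-Cytb* (-2.06, SE 0.48, adjusted p = 0.0445), *mt-Co3* (-1.77, SE 0.37, adjusted p = 0.0257) and *mt-Atp6* (-2.02, SE 0.43, adjusted p = 0.0279). Scaling to the 3 reference genes left 0 of these calls in either genome. The mouse line of the *ME* libraries was the same in naïve mice and at IM3h, and so was that of the *RiboTag* libraries, but these 2 lines differed. Fraction and mouse line thus cannot be told apart in this interaction.

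At IM24h no nuclear member of the *RiboTag* fraction passed the test (0 of 79 in either direction with edgeR, where 0.131% of all genes fell and 0.366% rose). At an unadjusted p under 0.05 there were 29 lower and 1 higher, of which 28 and 1 changed more than 2-fold (5.85% and 6.62% of all genes), DESeq2 called 17 lower and 0 higher, and 45 members lay below all naïve libraries and 0 above them (15% and 6.59% of all genes). The median was -1.39, and -0.92 without libraries 2 and 3, where 1 nuclear member was called. *Uqcrc1* shows the spread, with 74.8, 42.3, 0.441 and 57.0 in the 4 libraries. Of the mt mRNAs 6 of 13 fell, with a median of -1.62, and 3 did without libraries 2 and 3. *mt-Cytb* had 507, 228, 505 and 432 (-3.08, SE 0.44, adjusted p = 0.0206), *mt-Atp6* 369, 224, 576 and 312 (-2.57, SE 0.41, adjusted p = 0.0206) and *mt-Nd1* 975, 354, 597 and 461 (-2.21, SE 0.43, adjusted p = 0.0471), all below their naïve libraries. Without libraries 2 and 3 they were at -2.90, -2.68 and -1.93, and *mt-Nd1* lost its call (adjusted p = 0.0909). Leaving out IM24h library 2 or 4, or naïve library 2 or 3, left 0 mt mRNAs called, as did scaling by library totals. Of the mt mRNA counts of the *RiboTag* fraction *mt-Co3* took 26.3% in naïve mice (n = 3) and 27.7%, 55.1% and 47.5% at the 3 times after IM (n = 4 each), with each library at the last 2 times at 41.1% or more, against 15.0% in naïve *ME*. The highest naïve *RiboTag* library was at 34.2%. *Cox7a1* was listed at 0 in all IM24h and IM72h libraries, against 3.29, 10.1 and 2.48 in naïve mice. It passed the filter only through its naïve libraries, of which 1 was well above the others. In the interaction at IM24h 0 nuclear and 0 mt members were called (0.263% and 0.274% of all genes lower and higher), also without *RiboTag* libraries 2 and 3, with 7 nuclear members lower and 4 higher at an unadjusted p under 0.05 and more than 2-fold (7.23% and 5.84% of all genes).

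At IM72h the depth left for the members in the *RiboTag* fraction was small. Of the 82 nuclear members 50, 74, 49 and 47 had at least 1 count in the 4 libraries, against 79, 72, 69 and 75 at IM24h. Of 79 tested 8 fell and 0 rose, while 15.1% of all genes fell and 1.05% rose, and the median was -1.78 against -0.40 over all genes. The count that fell was 12 with DESeq2, 22 with library totals, 29 with the 3 reference genes, 24 and 14 without IM72h library 2 and 3, 3 without naïve library 1 and 2 without naïve library 2 or 3. There were 40 members below all naïve libraries, against 28% of all genes, and 2 above them, against 2.82%. With the 2-fold threshold 21 fell and 1 rose (19.4% and 3.1% of all genes). Each of the 8 had at most 3 counts in every IM72h library and passed the filter only through the naïve libraries, where it was high, so their calls are given as a description. *Ndufa9*, a subunit between the arms of complex I, had 9.60, 17.8 and 22.1 in naïve mice and 0 in all 4 libraries, at least 8.86-fold lower when a floor of 3 counts per library stands for 0. *Cox8b* was also at 0 throughout. *Ndufv1* had 41.7, 51.0 and 38.5 against 0, 0, 0.955 and 0.613, and *Atp5c1*, the γ subunit of the ATP synthase shaft, 35.4, 67.2 and 36.8 against 0, 0.875, 0 and 0. The calls for *Ndufa9*, *Ndufv1* and *Atp5c1* were lost without any 1 naïve library. Of the mt mRNAs 8 of 13 fell. *mt-Cytb* had 266, 648, 325 and 305 (-3.22, SE 0.40, adjusted p = 0.00818), *mt-Atp6* 285, 354, 218 and 147 (-3.15, SE 0.38, adjusted p = 0.00818) and *mt-Nd1* 389, 887, 246 and 374 (-2.58, SE 0.43, adjusted p = 0.00842). *mt-Nd5* had 87.9, 366, 293 and 236 against 221, 206 and 323 (0.00, adjusted p = 1). In the interaction at IM72h, in which the *ME* arm also differed in mouse line, 16 of 80 nuclear members were lower and 0 higher, against 21.1% and 2.15% of all genes and a median of all genes of -0.98. The count was 19 with DESeq2, 28 with the 3 reference genes and 51 with library totals, with the median of all genes at -1.80 and -3.06 under the last 2. At the 2-fold threshold 24 were lower and 2 higher (28.5% and 4.64% of all genes). Among mt mRNAs *mt-Nd4* (-3.08, SE 0.58, adjusted p = 0.00166) and *mt-Cytb* (-1.84, SE 0.57, adjusted p = 0.0321) had the lower change in the *RiboTag* fraction and *mt-Nd5* the higher one (2.11, SE 0.57, adjusted p = 0.0151). With library totals *mt-Nd5* was at -0.0043. Smooth muscle markers had a summed level of 1428 to 4012 in *RiboTag* libraries at IM24h, below the naïve range of 4885 to 7521, and of 2072 to 8744 at IM72h, which overlapped it. Glial markers were between 772 and 918 at IM24h and between 143 and 1454 at IM72h, below the naïve range of 1550 to 1871, and macrophage and monocyte markers, between 83.4 and 154 in naïve mice, were between 195 and 289 and between 232 and 606. Their part in the results at IM24h and IM72h was not tested.

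Other genes of the pathway were read from lists of regulators, enzymes, carriers and assembly factors. Among regulators of mitochondrial biogenesis 4 of 12 rose and 2 fell in the *ME* at IM3h, where 19.3% of all genes rose and 13.4% fell. *Pprc1*, a coactivator of the PGC-1 family, had 6.52, 5.80 and 6.16 in naïve mice and 37.6, 44.2 and 43.2 at IM3h (2.79, SE 0.16, adjusted p = 1.22e-06), while its relatives *Ppargc1a*, with 45.3, 43.2 and 40.1 against 20.1, 18.7 and 23.7 (-0.99, SE 0.14, adjusted p = 0.000515), and *Ppargc1b* (-1.35, SE 0.19, adjusted p = 0.000506) fell. None of the 3 had overlapping groups in the *ME*. *Pprc1* also rose at IM3h in the *RiboTag* fraction, from 5.43, 6.29 and 2.24 to 31.0, 50.7, 37.8 and 34.8 (3.11, SE 0.42, adjusted p = 0.000724), where 2 of 11 regulators rose, the other being *Gabpa* (2.17), against 8.86% of all genes, and *Ppargc1b* fell (-0.98, SE 0.24, adjusted p = 0.0205). *Ppargc1a* stayed low in the *ME*, at -1.16 (SE 0.18, adjusted p = 0.0013) at IM24h and -1.59 (SE 0.12, adjusted p = 2.66e-06) at IM72h, when 2 of 12 regulators were higher and 6 lower (29.3% and 28.3% of all genes). *Pprc1* was at 1.25 (SE 0.16, adjusted p = 7.25e-05) at IM72h.

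Among carriers and pores of the mitochondrial membranes 4 of 7 fell in the *ME* both at IM24h and at IM72h, and 0 rose. Of all genes 13.4% fell and 15.6% rose at IM24h, and 28.3% fell and 29.3% rose at IM72h, and the counts of the following lists are to be read beside these shares. *Slc25a4*, the adenine nucleotide translocator of heart and muscle, was at -1.40 (SE 0.24, adjusted p = 0.00225) and -1.28 (SE 0.15, adjusted p = 3.85e-05). *Slc25a5*, its ubiquitous relative, had 157, 134 and 172 in naïve mice, 28.4, 17.1, 29.0 and 115 at IM24h and 31.5, 31.1, 34.2 and 36.1 at IM72h (-2.25, SE 0.12, adjusted p = 3.98e-07 for IM72h). IM24h library 4 was apart from its group here as it was for *Ndufb2*. Of 17 genes of the TCA cycle and pyruvate dehydrogenase 1 fell at IM3h (*Suclg1*, -0.60, SE 0.12), 6 fell and 0 rose at IM24h, and 10 fell and 2 rose at IM72h. *Suclg1*, of succinyl-CoA ligase, had 129, 106 and 129 in naïve mice and 14.7, 23.7, 23.5 and 47.7 at IM72h (-2.17, SE 0.30, adjusted p = 0.000122). Of 6 genes of complex II and cytochrome c, 2 fell at IM24h, and at IM72h 3 fell and 2 rose. *Sdhb*, the iron-sulfur subunit, was at -2.11 (SE 0.56, adjusted p = 0.018) at IM24h and -1.74 (SE 0.22, adjusted p = 6.71e-05) at IM72h, while *Sdhd*, a membrane anchor of the same complex, had 22.2, 17.4 and 17.8 against 69.7, 59.9, 82.8 and 28.7 at IM72h (1.62, SE 0.30, adjusted p = 0.000898). Assembly factors were called in both directions at IM72h, as were all genes, with 4 of 16 for complex I higher and 6 lower, 5 of 17 for complex IV higher and 2 lower, and 5 of 10 for complex III and the ATP synthase higher and 2 lower. *Lrpprc*, which stabilises mt mRNAs, fell at IM24h (-0.89, SE 0.24, adjusted p = 0.018) and rose at IM72h (1.46, SE 0.24, adjusted p = 0.00037) in the *ME*, and fell at IM3h in the *RiboTag* fraction (-1.49, SE 0.30, adjusted p = 0.00727), where 3 of 17 TCA cycle genes fell, against 4.44% of all genes, among them *Mdh2* (-1.31, SE 0.28, adjusted p = 0.00929) and *Idh3g* (-1.48, SE 0.35, adjusted p = 0.0163).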

How the data were processed

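Total *ME* RNA and *RiboTag* RNA were sequenced as 3′ end libraries, and the submitters' processing notes name cutadapt, STAR, Partek and mm10. The 5 tables used hold estimated counts per transcript or gene, which the authors deposited without scaling for library size. Between 31.0% and 67.0% of the values of a table are not whole numbers, so they were rounded. Features have a total of at least 10 counts. The authors' 4 comparison tables (group means, p-values, FDR and fold changes) were not used.

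Members and lists were chosen with earlier results of these data known. *RiboTag* transcripts were summed by symbol. Groups are those named in the tables. Library names match no sample label, so replicates carry no number from the labels, and 3 naïve *RiboTag* libraries serve all 3 *RiboTag* comparisons, whose controls are thus shared, as are those of the *ME*.

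In R 4.3.3, edgeR 4.0.16 (beside limma 3.58.1) fitted each comparison after TMM scaling and filterByExpr, with two-sided quasi-likelihood tests, called at a Benjamini-Hochberg adjusted p under 0.05. The fit was also run on simulated data, and the outcome is not given here. Exact permutation tests of single levels were two-sided. Fractions were compared within a time and by an interaction, joined by symbol. The background share is that of all genes tested. Floors of 3 counts per library cover counting error only.

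Genes are named by a rule, namely 5 mt mRNAs, 6 core subunits, isoform genes with their partners, the 3 largest called rises and falls of a comparison with naïve mice and of IM72h with IM24h in the *ME*, and up to 3 called genes of a pathway list. Others are said to be named after their values were seen, or are all members of a small count. Some genes that the rule would name are not reported here. Alternatives were DESeq2 1.42.0, other scalings, no filter, a threshold of p under 0.05 with more than 2-fold change, all groups in one fit, and leaving out each library. Coordinates are those of mm10 and motifs were searched on both strands.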

Additional observations from a re-analysis of the deposited data

Results flagged for a closer look

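Within groups of 4 libraries, single values were tested for distance from their neighbours in the genes described and in the sums, 99 groups in all, and 8 were far from the rest. Chance flags about 1 in 20 groups. In the *ME* at IM24h, library 4 was high for *Ndufb2* (73.1 TMM-scaled CPM) and *Slc25a5* (115). In the *ME* at IM72h, library 4 was apart for *Atp5g1* (188), *Atp5l* (800.1), *Cox4i1* (371) and *mt-Cytb* (6515), being the lowest for *Atp5l* and the highest for the others. In the *RiboTag* fraction library 4 at IM3h was high for *Atp5g1* (66.3) and library 2 at IM72h for *mt-Cytb* (648).

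The change after IM differed between the 2 fractions in the interaction test in the 14 results listed here, which are from 12 members. At IM3h the log2 difference of the changes, *RiboTag* less *ME*, was -1.5 for *Cox6a1*, -1.45 for *Ndufb8*, -3.40 for *Ndufs6b*, -1.97 for *Ndufs8*, -1.19 for *Uqcrc1*, -2.02 for *mt-Atp6*, -1.77 for *mt-Co3*, -2.06 for *mt-Cytb*, -1.77 for *mt-Nd1*, -1.96 for *mt-Nd3* and -1.92 for *mt-Nd4*. The reads of *Ndufs6b* are uncertain, and within the *RiboTag* fraction it passed the filter through its naïve libraries. At IM72h it was -1.84 for *mt-Cytb*, -3.08 for *mt-Nd4* and 2.11 for *mt-Nd5*, in *RiboTag* libraries that held between 0 and 11.8 of *Sox10*. The 16 nuclear members called at IM72h are not listed, since 21.1% of all genes were called in that direction.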

How the results depend on the processing

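No paired analysis was possible because library names carry no replicate number and no animal. The methods of the study describe input controls taken from the same lysate as the pulldown. The fractions at IM24h and IM72h may therefore share animals, and they were fitted as independent. Leaving out single libraries was not run for the interactions. For 128 named values, 1762 alternatives were computed, of which 1470 kept direction and side of the threshold, 248 lost the call, 17 gained it and 27 turned in sign.

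Scaling to *Actb*, *Hsp90ab1* and *Rplp1* turned *Atp5g3* in the *ME* at IM24h (-0.26), at IM72h (-0.41) and from IM24h to IM72h (-0.15), and *Cox6b2* at IM72h (-0.14). Counts of members called became, in the *ME*, 45 nuclear and 1 mt lower and 0 mt higher at IM3h, 0 nuclear higher and 3 mt lower at IM24h, 1 nuclear higher at IM72h, and 11 nuclear and 0 mt higher with 2 nuclear and 1 mt lower from IM24h to IM72h. In the *RiboTag* fraction they became 6 nuclear lower at IM3h, 0 mt lower at IM24h and 29 nuclear lower at IM72h, between fractions 36 nuclear and 8 mt lower in naïve mice, 12 nuclear lower at IM24h and 47 at IM72h, and in the interaction 0 nuclear and 0 mt at IM3h, and 28 nuclear and 6 mt lower and 0 mt higher at IM72h.

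Scaling by library totals turned *mt-Co1* in the *ME* at IM24h (0.10, a difference of mean levels of 141), *Atp5g1* (0.58), *Cox4i1* (0.067, 16.7) and *mt-Nd4* (0.52, 7889) at IM72h, *Atp5g1* (0.29) and *Cox4i1* (0.0052) between naïve fractions and *mt-Nd5* in the interaction at IM72h (-0.0043). Counts became, in the *ME*, 19 nuclear lower and 0 mt higher at IM3h, 8 nuclear higher, 13 nuclear lower and 4 mt lower at IM24h, and 30 nuclear higher and 14 lower at IM72h, in the *RiboTag* fraction 0 mt lower at IM24h and 22 nuclear lower at IM72h, between fractions 3 nuclear higher and 25 lower in naïve mice, 1 higher at IM3h and 53 lower at IM72h, and in the interaction 3 nuclear with 3 mt lower at IM3h, 4 with 2 at IM24h, and 51 with 9, beside 0 mt higher, at IM72h.

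Summed without *AY036118*, IM3h *ME* libraries had 111883 CPM of mt mRNA, while IM24h and IM72h *RiboTag* libraries had 15053 and 9426. Nuclear mRNA was 18360 and 15691 in naïve and IM3h *ME* and 5391 and 5249 in those *RiboTag* groups. With TMM scaling the mt sum was 120199 in IM3h *ME* libraries and 27907, 8272 and 6287 in *RiboTag* naïve, IM3h and IM72h libraries, and the nuclear sum 17500, 16831, 10392 and 15549 in the *ME* in order of time and 6279, 4141 and 3497 in those 3 *RiboTag* groups.

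DESeq2 called 17 nuclear members lower in the *RiboTag* fraction at IM24h, between fractions 1 higher at IM24h and 46 lower at IM72h, and in the interaction 16 nuclear lower at IM3h, 2 nuclear higher, 1 nuclear lower and 1 mt lower at IM24h and 4 nuclear higher at IM72h. A fit of all groups gave 13 mt lower in the *ME* at IM24h, 3 nuclear lower and 0 mt higher at IM3h, 0 nuclear and 4 mt lower in the *RiboTag* fraction at IM3h, and turned *Atp5g1* at IM72h (0.013). Without the filter *Atp5g1* (0.084) and *mt-Nd4* (0.042) at IM72h and *Uqcrc1* between naïve fractions (-0.054) turned, 1 mt mRNA was lower from IM24h to IM72h, and 5 and 0 nuclear members were lower in the *RiboTag* fraction at IM24h and IM72h. Without *RiboTag* IM24h libraries 2 and 3, 1 nuclear and 3 mt members were lower.

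At an unadjusted p under 0.05 with more than 2-fold change, the *ME* had 1 nuclear lower and 0 mt higher at IM3h, 0 nuclear higher at IM24h, 1 nuclear higher and 18 lower at IM72h, and 14 nuclear and 0 mt higher and 2 nuclear and 1 mt lower from IM24h to IM72h. The *RiboTag* fraction had 1 nuclear higher and 28 lower at IM24h and 1 higher and 21 lower at IM72h, the fractions differed in 1 nuclear higher at IM24h and 39 lower at IM72h, and the interaction gave 13 nuclear and 10 mt lower at IM3h, 4 nuclear and 1 mt higher and 7 nuclear and 4 mt lower at IM24h, and 2 nuclear higher and 5 mt lower at IM72h.

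With 1 library left out, counts in the *ME* ranged from 3 to 13 nuclear lower at IM3h, 4 to 13 mt lower and 0 to 1 nuclear higher at IM24h, and 3 to 6 nuclear lower, 1 to 3 mt lower and 0 to 1 mt higher from IM24h to IM72h. *RiboTag* counts ranged from 7 to 32 nuclear lower at IM3h, 0 to 9 nuclear and 0 to 7 mt lower at IM24h, and 2 to 24 nuclear lower and 0 to 1 higher at IM72h (24 without IM72h library 2, 2 without naïve library 2 or 3), and between fractions from 14 to 39 nuclear lower and 0 to 1 higher at IM24h (14 without *ME* library 4) and 18 to 47 lower and 0 to 1 higher at IM72h (47 without *RiboTag* library 2). *Atp5g3* ranged from -0.12 to 0.29 in the *ME* at IM24h and from -0.024 to 0.37 at IM72h, *Atp5g1* from -0.10 to 0.043 and *mt-Nd4* from -0.24 to 0.13 at IM72h, and *Uqcrc1* from -0.059 to 0.034 between naïve fractions. The cause of these shifts was not tested. No count moved by over 1.5 times with *ME* transcripts summed, normalisation without mt genes and *AY036118*, or members with at least 10 counts.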
